A study of Mus musculus with 8 samples.

Results

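The genes described here carry the corticosteroid and corticotropin-releasing hormone signal in the fetal mouse brain. They are the glucocorticoid receptor Nr3c1, the mineralocorticoid receptor Nr3c2, the receptor co-chaperones Fkbp4, Fkbp5 and Ptges3, the dehydrogenases Hsd11b1 and Hsd11b2, and the CRH genes Crh, Crhr1 and Crhbp. They were chosen by name from what they are known to do, with earlier results of these data known. These 10 genes were found by symbol among the 54752 gene identifiers in the count tables. RNA of whole brains from C57BL/6 wild type fetuses (C57BL/6Slac in the study's methods) was sequenced at embryonic day E15.5, with 1 library per brain. The 4 stress brains came from a dam exposed to chronic unpredictable mild stress (CUMS), a changing series of mild stressors, from E5.5 to E14.5, and the 4 control brains from a dam left in its home cage. The control group held females F36 and F37 and males M30 and M31, and the stress group held females F34 and F35 and males M28 and M29. Each group was 1 litter, so an effect of the litter and one of the stress cannot be told apart, and every p-value below measures the spread between littermates.

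Corticosteroids cross the cell membrane and bind receptors that wait in the cytoplasm in a complex with HSP90 and its co-chaperones. The bound receptor moves to the nucleus and acts as a transcription factor. The mineralocorticoid receptor binds corticosterone more tightly than the glucocorticoid receptor, and the dehydrogenases set how much active hormone reaches either of them inside a cell. CRH starts the hormonal stress axis from the hypothalamus, through a receptor on pituitary corticotrophs, and the same receptor is also made by neurons of the cortex and other brain regions.

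Library totals were between 25320109 and 29105710 counts, and 17865 genes passed the filter on low counts. Levels are CPM, the usual unit of counts relative to library size, on totals scaled by TMM, a normalization that takes most genes as unchanged. A fold change is log2 of stress over control (Log2FC), with its standard error (SE), from edgeR's quasi-likelihood test with sex in the model and Benjamini-Hochberg adjustment over all genes tested. Calls were made where the adjusted p was under 0.05. Of all genes tested, 13.8% were called, 6.49% as higher and 7.27% as lower in the stress group, and in 16.4% the brains of the groups did not overlap in CPM. The share called by DESeq2's Wald test was 9.29%.

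Nr3c1, Nr3c2 and Crhr1, all of them receptors, fell in the stress group, while the co-chaperones, the dehydrogenases, the ligand Crh and its binding protein were not called. Of the 9 genes tested, 3 were called lower and 0 higher, beside 7.27% and 6.49% of all genes tested. The same 3 had groups that did not overlap, beside 16.4% of all genes tested. With DESeq2, 1 of the 9 was called, Crhr1, beside 9.29% of all genes tested. Hsd11b1 had too few counts to be tested. Log2FC was negative in 9 of 9 genes, beside 49.4% of all genes tested, and its median was -0.07, beside 0.0015 over all genes tested. Several of these signs were not firm. Those of Fkbp5, Hsd11b2 and Crhbp changed when 1 brain was left out, and 6 of the 9 were the same in both sexes. In these bulk samples, fewer cells of a type and less RNA per cell cannot be told apart.

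**Figure D1:**
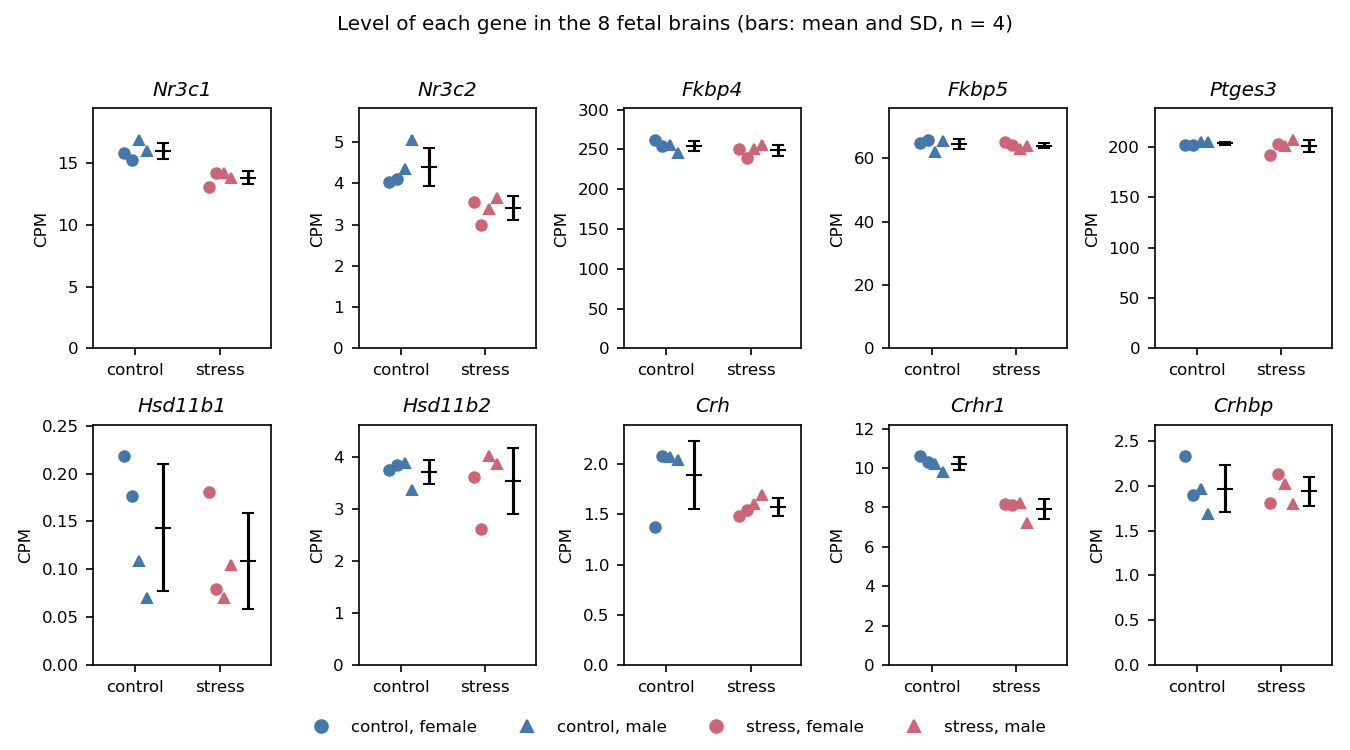
Each panel plots 1 gene, with its level in CPM on the vertical axis starting at 0, and each point is 1 brain (circles female, triangles male, blue control, red stress). Bars beside the points are the mean and SD of 4 brains. The stress brains lie below every control brain for Nr3c1, Nr3c2 and Crhr1, and the groups overlap for the other 7 genes.

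Per kilobase of exon, which makes levels of different genes comparable, the co-chaperones stood far above the rest. Ptges3 had a mean of 91.1 CPM per kilobase over the 8 brains (range 86.5 to 93.2) and Fkbp4 90.0 (85.7 to 93.6), and these ranges overlapped. Both levels were at percentile 98.0 of the genes tested. Fkbp5 followed at 6.80 CPM per kilobase (6.56 to 6.96), 13.2-fold below Fkbp4 in mean level. Crhr1 was next at 3.69 CPM per kilobase (2.92 to 4.32), above Nr3c1 in 8 of 8 brains. Nr3c1 at 2.01 (1.77 to 2.27) and Hsd11b2 at 1.97 (1.42 to 2.18) overlapped in CPM per kilobase. Crh had 1.32 CPM per kilobase (1.05 to 1.58), with a range that overlapped with that of Hsd11b2 above it and with that of Crhbp below it, at 1.09 (0.937 to 1.29). Nr3c2 lay below all of these at 0.602 CPM per kilobase (0.464 to 0.782), at percentile 18.4 of the genes tested. Hsd11b1 was lowest at 0.0296 CPM per kilobase (0.0164 to 0.0514).

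**Figure D2:**
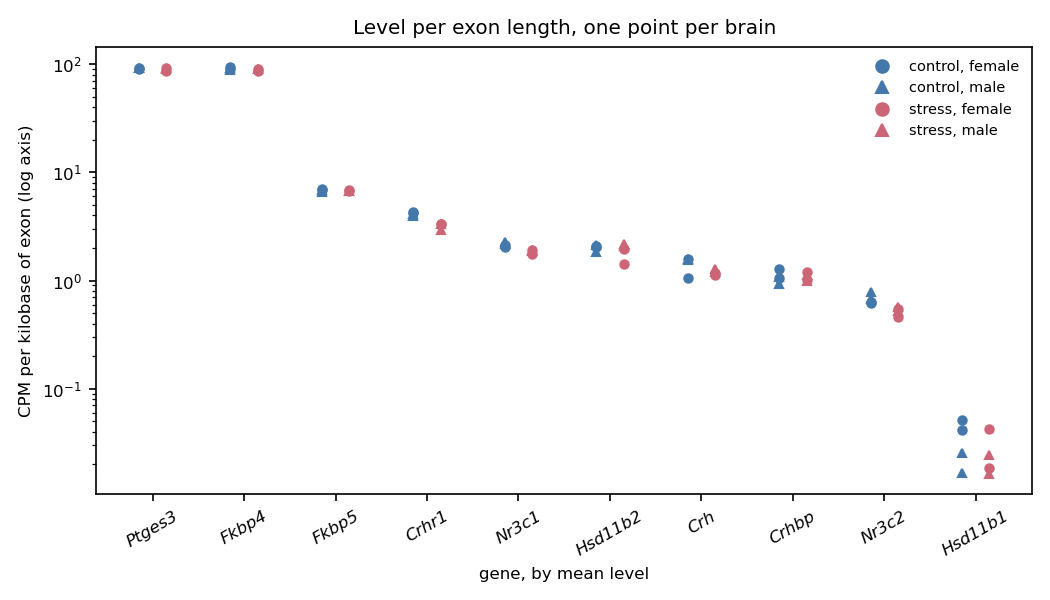
Level of each gene in CPM per kilobase of exon on a log axis, with genes ordered by their mean over 8 brains and each point 1 brain (blue control, red stress, circles female, triangles male). Ptges3 and Fkbp4 sit near 90 CPM per kilobase in every brain, Nr3c2 sits between 0.464 and 0.782, and Hsd11b1 lies below all other genes.

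The receptors come first. Nr3c1 encodes the glucocorticoid receptor and lies on the minus strand of chromosome 18 (mm10, 39410545 to 39491301, ENSMUSG00000024431.14). Its level was 15.8 CPM in control F36, 15.3 in F37, 16.9 in M30 and 16.0 in M31. In the stress group it was 13.1 CPM in F34, 14.2 in F35, 14.2 in M28 and 13.8 in M29. Every stress brain was below every control brain. The mean fell by 13.5%, from 16.0 CPM ± 0.655 (SD, n = 4) to 13.8 CPM ± 0.492 (SD, n = 4), with a Log2FC of -0.21 (SE 0.06, 95% interval -0.33 to -0.09). The adjusted p in edgeR's quasi-likelihood test was 0.0143, and the exact two-sided permutation p was 0.0286, the smallest that 4 brains against 4 can give. The Benjamini-Hochberg adjusted p rose to 0.0555 with DESeq2's Wald test, to 0.0578 in edgeR without control M30 and to 0.0555 in edgeR without stress M29, so each of these ended the call. The spread within groups, 4.09% and 3.55% of the mean, was smaller than the 4.91% that counting error alone gives at these counts (360 to 465 per brain).

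Nr3c2 encodes the mineralocorticoid receptor, on the plus strand of chromosome 8 (mm10, 76899442 to 77245012). Of its exon bases, 3.82% are shared with the gene Gm10649 on the other strand, and the counting was not stated to use strand. Nr3c2 was at 4.04 CPM in control F36, 4.12 in F37, 4.35 in M30 and 5.06 in M31. In the stress group it was at 3.55 CPM in F34, 3.0 in F35, 3.38 in M28 and 3.66 in M29. The groups did not overlap, and control M31 was the highest brain and stress F35 the lowest. The mean fell by 22.7%, from 4.40 CPM ± 0.464 (SD, n = 4) to 3.40 CPM ± 0.288 (SD, n = 4), with a Log2FC of -0.37 (SE 0.11, 95% interval -0.59 to -0.15). The edgeR adjusted p was 0.0211 and the exact two-sided permutation p 0.0286. The Benjamini-Hochberg adjusted p was 0.0955 with DESeq2, and in edgeR it was 0.0965 without control M31, 0.0551 without stress F35 and 0.0704 without stress M28, all above the threshold. Counts were 76 to 144 per brain, at which counting error alone is 9.59% of the mean.

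Both receptors fell, and the balance between them was not separated by group. The log2 ratio of Nr3c1 to Nr3c2 counts within a brain was 1.86 ± 0.14 (SD, n = 4) in the control group and 2.02 ± 0.16 (SD, n = 4) in the stress group. Control brains ranged from 1.66 to 1.96 and stress brains from 1.88 to 2.24, so the groups overlapped. Per length, Nr3c1 was 3.18 times the level of Nr3c2 in the control group and 3.54 times in the stress group.

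The window of 250 bases before a start of Nr3c2 that RefSeq gives (GRCm38.p6, chr8:76902080-76902329, plus strand) lies inside the span of the gene given above. It is shown because this gene fell and because it can be set beside the windows of Fkbp5 and Crhr1. Here and below, capitals mark the GC box, GGGCGG or its complement CCGCCC, and sequences are written 5′ to 3′ on the strand of the gene.
Nr3c2: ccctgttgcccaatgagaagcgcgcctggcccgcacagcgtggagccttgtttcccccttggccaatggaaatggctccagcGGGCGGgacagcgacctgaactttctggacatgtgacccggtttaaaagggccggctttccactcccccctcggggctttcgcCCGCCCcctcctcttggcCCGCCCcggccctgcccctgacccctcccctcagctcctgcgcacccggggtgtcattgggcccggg
The Nr3c2 window held 3 GC boxes and 68.4% G and C, above the median of 52.4% over 32851 RefSeq windows of the same length. No window was in the promoter table for Nr3c1, Hsd11b2 and Crh.

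None of Fkbp4, Fkbp5 and Ptges3, which escort these receptors, was called in edgeR or DESeq2, and their intervals were the narrowest of the 9 genes. Fkbp4 encodes FKBP52, which favours hormone binding and transport of the receptor to the nucleus. Fkbp4 lies on chromosome 6 (mm10, 128429735 to 128438677, minus strand). Its level was 262, 254, 255 and 246 CPM in control F36, F37, M30 and M31, and 249.9, 239.5, 250.5 and 255 CPM in stress F34, F35, M28 and M29. The groups overlapped, with means of 254 CPM ± 6.35 and 249 CPM ± 6.49 (SD, n = 4 each). Log2FC was -0.03 (SE 0.03, 95% interval -0.09 to 0.03, edgeR adjusted p = 0.519).

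Fkbp5 encodes FKBP51, which lowers hormone binding by the receptor and is itself a classical gene induced by glucocorticoids. Fkbp5 lies on chromosome 17 (mm10, 28399094 to 28517527, minus strand). It was at 64.9, 65.9, 62.1 and 65.4 CPM in control F36, F37, M30 and M31, and at 65.2, 64.1, 63.1 and 63.9 CPM in stress F34, F35, M28 and M29. The stress brains lay inside the range of the control brains. The means were 64.6 CPM ± 1.68 and 64.1 CPM ± 0.868 (SD, n = 4 each). Log2FC was -0.01 (SE 0.03, 95% interval -0.08 to 0.06, edgeR adjusted p = 0.869), an interval that leaves out changes as large as those of the receptors. The log2 ratio of Fkbp5 to Fkbp4, which pull receptor binding in opposite directions, was -1.98 ± 0.06 in control and -1.96 ± 0.04 in stress brains (SD, n = 4 each), with overlapping groups.

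The RefSeq window before a start of Fkbp5 (GRCm38.p6, chr17:28486150-28486399, minus strand) lies inside the span of the gene in the files and is shown as that of a gene known to respond to glucocorticoids.
Fkbp5: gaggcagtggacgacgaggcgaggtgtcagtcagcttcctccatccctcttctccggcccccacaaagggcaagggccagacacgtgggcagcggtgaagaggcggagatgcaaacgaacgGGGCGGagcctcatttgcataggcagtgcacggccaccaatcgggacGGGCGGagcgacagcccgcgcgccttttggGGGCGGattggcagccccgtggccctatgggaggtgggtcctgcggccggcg
It held 3 GC boxes and 68.0% G and C. The core hexamer of the glucocorticoid response element, TGTTCT or its complement AGAACA on either strand, was in 0 of the 7 windows found for these genes and in 16.1% of all windows. An inverted repeat of exact hexamers with a gap of 3 bases was in 0 of the 7 and in 0.00913% of all windows. The absence of these letters applies to 250 bases only.

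Ptges3 encodes p23, a co-chaperone that stabilizes HSP90 bound to a mature receptor. Ptges3 lies on chromosome 10 (mm10, 128058954 to 128077272, plus strand), and the pseudogene Ptges3-ps may share reads with it. It was at 202, 202, 205 and 205 CPM in control F36, F37, M30 and M31, and at 192, 203, 201 and 207 CPM in stress F34, F35, M28 and M29. Stress F34 was the lowest and stress M29 the highest of the 8 brains. Means were 203 CPM ± 1.74 and 200.4 CPM ± 6.20 (SD, n = 4 each), with a Log2FC of -0.02 (SE 0.03, 95% interval -0.08 to 0.03, edgeR adjusted p = 0.659).

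The dehydrogenases were low, and they act in opposite directions on the hormone. Hsd11b2 oxidizes corticosterone to an inactive form and guards the fetal brain against maternal hormone, and it lies on chromosome 8 (mm10, 105518755 to 105523988, plus strand). It was at 3.75, 3.84, 3.88 and 3.37 CPM in control F36, F37, M30 and M31, and at 3.62, 2.61, 4.01 and 3.87 CPM in stress F34, F35, M28 and M29. Stress F35 was the lowest brain and stress M28 the highest, and the groups overlapped. Means were 3.71 CPM ± 0.232 and 3.53 CPM ± 0.633 (SD, n = 4 each), and Log2FC was -0.07 (SE 0.12, 95% interval -0.32 to 0.18, edgeR adjusted p = 0.768). The interval is wide enough to hold changes of the size seen in Nr3c1.

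Hsd11b1, which regenerates active hormone, lies on chromosome 1 (mm10, 193221634 to 193264075, minus strand). It had 6, 5, 3 and 2 counts in control F36, F37, M30 and M31 and 5, 2, 2 and 3 counts in stress F34, F35, M28 and M29. The sums were 16 and 12 counts, and the exact two-sided permutation p was 0.429 for 4 brains against 4. At this depth a difference between the groups was not detectable. Per length, Hsd11b1 was 0.0175 times the level of Hsd11b2 in control brains and 0.0148 times in stress brains.

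Crh, the ligand that starts the hormonal stress axis, is a short gene on chromosome 3 (mm10, 19693401 to 19695396, minus strand). It was at 1.38 CPM in control F36, 2.08 in F37, 2.07 in M30 and 2.04 in M31. In the stress group it was at 1.48 CPM in F34, 1.54 in F35, 1.6 in M28 and 1.69 in M29. All 4 stress brains lay below 3 of the control brains and above control F36. Means were 1.89 CPM ± 0.340 and 1.58 CPM ± 0.0892 (SD, n = 4 each), with a Log2FC of -0.26 (SE 0.16, 95% interval -0.59 to 0.06). The edgeR adjusted p was 0.305, and leaving out 1 brain moved Log2FC between -0.16 without control F37 and -0.37 without control F36, with Benjamini-Hochberg adjusted p of 0.637 and 0.142. With 38 to 59 counts per brain, counting error alone is 14.4% of the mean.

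Crhr1 encodes the type 1 CRH receptor, which is coupled to cAMP, and lies on chromosome 11 (mm10, 104132855 to 104175523, plus strand). It was at 10.6 CPM in control F36, 10.3 in F37, 10.2 in M30 and 9.81 in M31. In the stress group it was at 8.18 CPM in F34, 8.14 in F35, 8.23 in M28 and 7.19 in M29. The groups did not overlap, and stress M29 stood below the other stress brains. The mean fell by 22.4%, from 10.2 CPM ± 0.337 (SD, n = 4) to 7.93 CPM ± 0.50 (SD, n = 4), with a Log2FC of -0.37 (SE 0.07, 95% interval -0.51 to -0.22). The edgeR adjusted p was 0.00108, the exact two-sided permutation p 0.0286, and the Benjamini-Hochberg adjusted p in DESeq2 0.00347. Without any 1 brain, Log2FC stayed between -0.40 and -0.33 and the edgeR adjusted p between 0.00141 and 0.00862, the highest of them without stress M29. By size of change, Crhr1 and Nr3c2 were at percentiles 93.6 and 93.7 of all genes tested, and Nr3c1 at 81.4.

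The RefSeq window of Crhr1 (GRCm38.p6, chr11:104132531-104132780, plus strand) is shown because this gene was called in edgeR and in DESeq2. It ends before the first exon of the gene in the files.
Crhr1: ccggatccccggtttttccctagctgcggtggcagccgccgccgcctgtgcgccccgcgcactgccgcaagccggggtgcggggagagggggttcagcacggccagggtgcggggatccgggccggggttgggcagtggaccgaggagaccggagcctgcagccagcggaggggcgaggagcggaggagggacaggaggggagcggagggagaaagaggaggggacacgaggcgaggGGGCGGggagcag
It was the richest of the 7 windows in G and C, at 74.8%, and held 1 GC box. A GC box was in 5 of the 7 windows and in 32.7% of all windows, and TATAAA or its complement was in 0 of the 7 and in 7.59% of all. The windows of Nr3c2 and Crhr1, which fell, and of Fkbp5, which was not called, thus held the same motif.

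Crhbp encodes the CRH binding protein, which sequesters the ligand, and lies on chromosome 13 (mm10, 95431371 to 95444924, minus strand). It was at 2.33, 1.9, 1.96 and 1.69 CPM in control F36, F37, M30 and M31, and at 1.81, 2.13, 2.02 and 1.80 CPM in stress F34, F35, M28 and M29. The stress brains lay inside the range of the control brains. Means were 1.97 CPM ± 0.267 and 1.94 CPM ± 0.165 (SD, n = 4 each), with a Log2FC of -0.02 (SE 0.15, 95% interval -0.32 to 0.28, edgeR adjusted p = 0.951). The log2 ratio of Crhbp to Crh was 0.07 ± 0.46 in control and 0.29 ± 0.16 in stress brains (SD, n = 4 each), and the groups overlapped. Within the control group this ratio was 0.74 in F36 and between -0.27 and -0.08 in the other 3 brains.

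**Figure D3:**
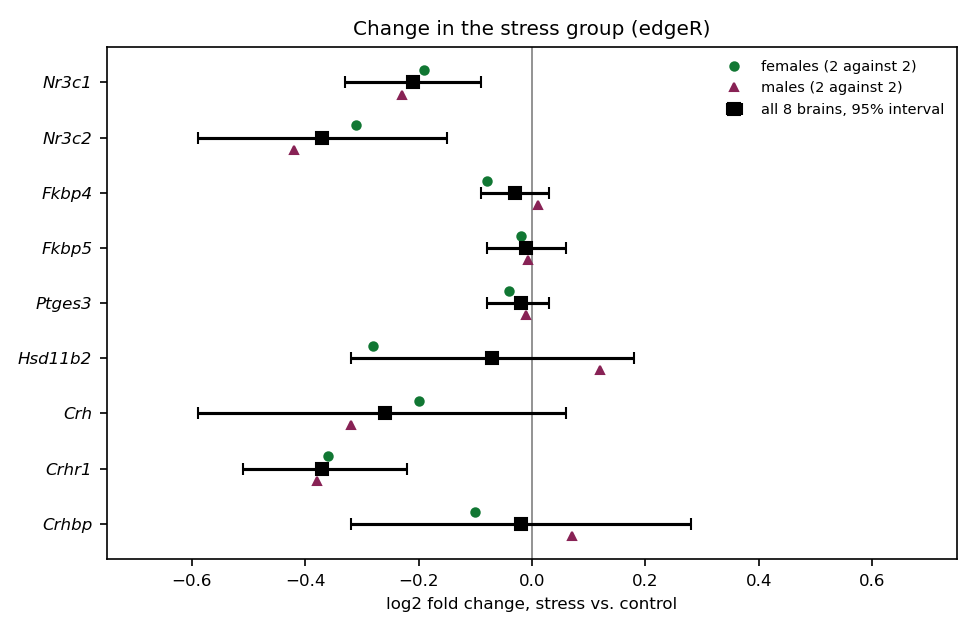
Log2FC (stress vs. control) of the 9 tested genes, with black squares and bars for the estimate and 95% interval over 8 brains, green circles for the females and purple triangles for the males (2 brains against 2 each). The bars of Nr3c1, Nr3c2 and Crhr1 lie wholly below 0, and those of Hsd11b2, Crh and Crhbp are the widest.

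Within each sex, 2 brains against 2, the estimates for the receptor genes had the same sign, and most did not pass the test. Nr3c1 had a Log2FC of -0.19 (SE 0.08) in females and -0.23 (SE 0.08) in males, with edgeR adjusted p of 0.234 and 0.0882. For Nr3c2 the values were -0.31 (SE 0.16) in females and -0.42 (SE 0.15) in males (edgeR adjusted p = 0.289 and 0.0945). For Crhr1 they were -0.36 (SE 0.10) and -0.38 (SE 0.10), with edgeR adjusted p of 0.054 in females and 0.0293 in males, the only call among these 6 estimates. Log2FC had the same sign in both sexes for 6 of the 9 genes, and differed in sign for Fkbp4, Hsd11b2 and Crhbp. The sex by stress interaction was called for 0 of the 9 genes in edgeR, where 0 also had an unadjusted p under 0.05, and both counts were 0 with DESeq2. In the background, 0.0056% of all genes were called for it, which is the single gene Stambp, named after its values were seen. The smallest interaction p was 0.101 for Hsd11b2 (Benjamini-Hochberg adjusted p = 0.833), whose Log2FC was -0.28 (SE 0.17) in females and 0.12 (SE 0.16) in males. Between males and females, 0 of the 9 genes were called (0 at an unadjusted p under 0.05 in edgeR), beside 0.0896% of all genes. The interval of the interaction ran from -0.29 to 0.19 for Nr3c1, from -0.55 to 0.34 for Nr3c2 and from -0.32 to 0.28 for Crhr1. Those of Nr3c1 and Nr3c2 hold a difference between the sexes as large as the falls of these genes over all 8 brains.

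Beyond these 10 genes, the machinery that handles the receptors was mostly not called, and neither were most genes tested (13.8% called). The counts below stand beside 6.49% of all genes tested called higher and 7.27% called lower. Of 14 genes of the HSP90 and HSP70 machinery of steroid receptors, 0 rose and 1 fell, Hspa8, which encodes a constitutive HSP70 (Log2FC -0.10, SE 0.02). The median Log2FC of the list was -0.02. Of 14 coregulators of the glucocorticoid receptor, 1 rose, the corepressor scaffold Sin3a (0.17, SE 0.03 in Log2FC), and 1 fell, the coactivator Ncoa1 (-0.14, SE 0.03). Other steroid receptors were low or not called, with Log2FC of -0.07 for Pgr, -0.27 for Esr1 and -0.10 for Esrra, while Esr2 did not pass the filter.

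Of 18 genes known to be induced by glucocorticoids, 0 rose and 2 fell, and the median Log2FC was -0.05. Log2FC was negative in 16 of the 18, beside 49.4% of all genes tested. Several of these signs were not firm, with a Log2FC smaller than its SE, as in Errfi1 (-0.0033, SE 0.05), Fkbp5 (-0.01, SE 0.03) and Mt2 (-0.04, SE 0.23). The summed level was 379 to 392 CPM in control and 368 to 374 CPM in stress brains, which did not overlap. Cdkn1a, which encodes the cell cycle inhibitor p21, had a Log2FC of -0.34 (SE 0.05). Its mean was 27.8 CPM in control and 21.9 CPM in stress brains, which adds to the fall of the sum. Nfkbia, an inhibitor of NF-κB, had -0.16 (SE 0.05) and was called in none of the 8 edgeR tests that left out 1 brain, nor with DESeq2 (Benjamini-Hochberg adjusted p = 0.155). Fkbp5 belongs to this list as well as to the co-chaperones and was not called in either role. The share called lower, 2 of 18, stands beside 7.27% of all genes tested.

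Of 15 genes of corticosteroid synthesis, conversion and transport, 8 passed the filter and, beside 7.27% of all genes tested, 1 fell. This was Akr1c14, a hydroxysteroid dehydrogenase with close paralogs that may share reads. Its Log2FC was -1.28 (SE 0.41) at 2 to 25 counts per brain, its groups overlapped, and it was called in 3 of the 8 edgeR tests that left out 1 brain and not with DESeq2. Cyp11b1, which makes corticosterone, and Serpina6, which carries it in blood, were at 0 counts in all 8 brains. Of 17 genes of the CRH family, vasopressin and the stress axis, 10 passed the filter. Of these 1 rose and 1 fell, beside 6.49% and 7.27% of all genes tested. The melanocortin receptor Mc4r rose (Log2FC 0.39, SE 0.06), and vasopressin, Avp, which acts beside CRH on corticotrophs, fell (Log2FC -0.55, SE 0.17), and was called in 5 of the 8 tests that left out 1 brain and not with DESeq2 (Benjamini-Hochberg adjusted p = 0.124). The median Log2FC of this list was -0.19, and that of the synthesis list was -0.14.

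Of 7 transcription factors of the developing hypothalamus, some of them needed for CRH neurons and several also expressed elsewhere in the brain, 3 rose and 0 fell, beside 6.49% of all genes called higher. These were Arnt2 (Log2FC 0.10, SE 0.03), Nkx2-1 (0.17, SE 0.05) and Otp (0.15, SE 0.05), which were called in 6, 4 and 2 of the 8 tests that left out 1 brain, and of which Nkx2-1 and Otp were not called with DESeq2. The median Log2FC of the list was 0.17, while Crh itself had -0.26. All of these lists were chosen by hand and were described by counts alone.

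**Figure D4:**
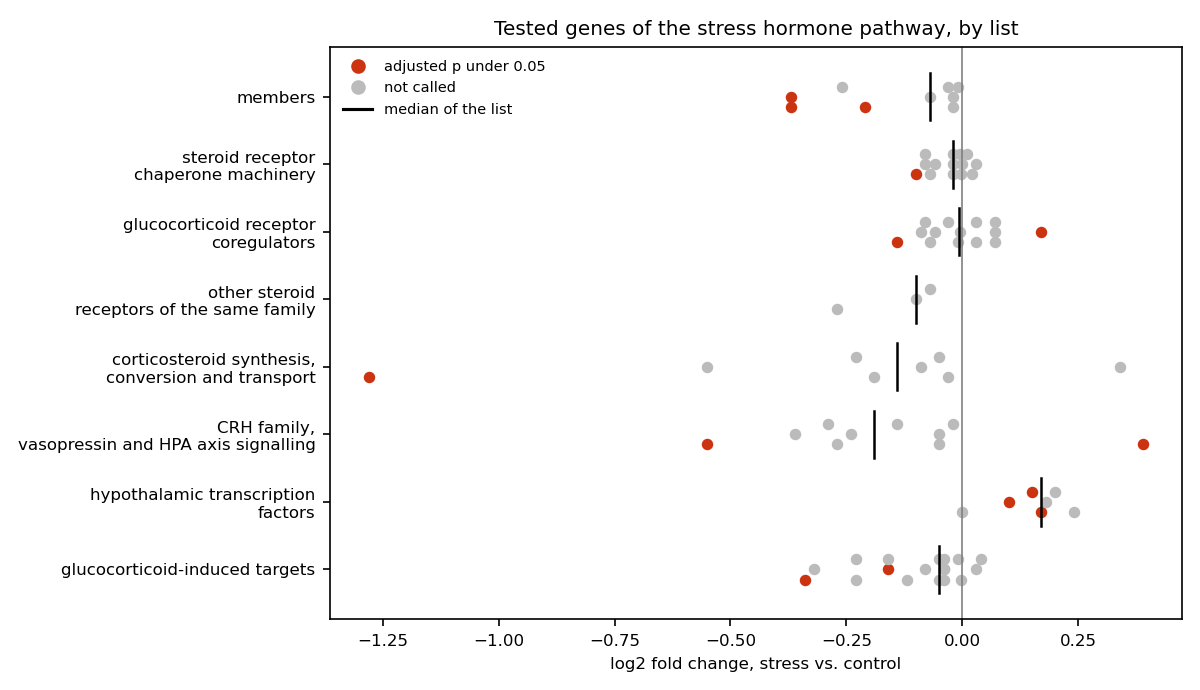
Log2FC (stress vs. control) of the tested genes of each list on the horizontal axis, each point 1 gene, red where called at an adjusted p under 0.05 and grey where not, with a black line at the list's median. Called genes of the members lie on the left, at -0.37 for Nr3c2 and Crhr1 and -0.21 for Nr3c1, and those of the hypothalamic transcription factors on the right.

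Some markers of cell types were called along with the receptor genes, beside 6.49% of all genes tested called higher and 7.27% lower. Of 10 neuron markers 5 fell and 0 rose, and their summed level was 8045 to 8292 CPM in control and 7857 to 8211 CPM in stress brains. Of 10 radial glia markers 5 rose and 0 fell (1718 to 1833 against 1772 to 1917 CPM), while Log2FC was negative in 4 of the 10. Of 8 markers of intermediate progenitors and neuroblasts 5 rose and 0 fell, with sums of 419.7 to 452 CPM in control and 458 to 508 CPM in stress brains, which did not overlap. Of 8 vascular markers 3 fell and 0 rose (239.6 to 265 against 229 to 241 CPM). The groups overlapped in the sums of the neuron, radial glia and vascular markers. Of the calls in these 4 lists, those of Snap25, Nes, Neurog1 and Cldn5 were not made by DESeq2, and these genes are named after their values were seen.

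The same was done for markers of other tissues that a dissected brain can hold. Of 9 markers of meninges and mesenchyme 3 rose and 1 fell (47.1 to 58.8 CPM in control, 46.8 to 88.7 CPM in stress brains), and of 7 choroid plexus markers 3 rose and 0 fell (37.7 to 48.7 against 47.5 to 77.7 CPM). Among the mesenchymal genes, Col3a1 was at 21.3 CPM in stress M28, at 6.48 to 10.6 CPM in the other stress brains and at 4.72 to 8.63 CPM in control brains, and it was not called with DESeq2 (Benjamini-Hochberg adjusted p = 0.158). The other collagen genes that rose, Col1a1 and Col1a2, were also highest in stress M28, overlapped between the groups and were not called with DESeq2 (adjusted p = 0.274 and 0.32). Ttr was at 29.9 CPM in stress F34, at 0.656 to 6.76 CPM in the other stress brains and at 0.564 to 6.95 CPM in control brains, and neither Ttr nor Kcne2 was called with DESeq2 (adjusted p = 0.412 and 0.227). Otx2 and Pdgfra were called by both tests, Otx2 as higher and Pdgfra as lower. Each was also the largest part of the sum of its list, so these sums are weighted to them. Means in control and stress brains were 38.1 and 43.2 CPM for Otx2 and 28.5 and 23.1 CPM for Pdgfra. The other choroid plexus markers, Folr1, Kl, Aqp1 and Clic6, were not called, with Log2FC of -0.20, -0.37, 0.05 and 0.30. Of 8 microglia markers 0 were called in edgeR (34 to 36.9 against 31.4 to 36 CPM). Of 9 blood markers 2 rose and 1 fell (364 to 412 against 370.5 to 385 CPM). Those that rose were Hba-x (Log2FC 1.09, SE 0.15) and Hbb-y (0.84, SE 0.13). Both had groups that did not overlap and were called with DESeq2. Their means in control and stress brains were 1.73 and 3.71 CPM for Hba-x and 3.36 and 6.0 CPM for Hbb-y, a small part of the sum. Of 7 rhombic lip markers 1 rose and 0 fell (475 to 487 against 487 to 516 CPM). Pituitary markers, which bear on Crhr1 because corticotrophs express it, were mostly low. Of 11 such genes 5 passed the filter and 0 were called in edgeR, their sum was 10.8 to 12.4 CPM in control and 11.7 to 12.3 CPM in stress brains, and Gh and Prl, which define other pituitary cell types, were at 0 counts in every brain. Other genes of the list were detected, with 15 to 25 counts of Lhx3 and 8 to 26 of Pitx1 per brain, while Tbx19 had 0 to 6. How much pituitary tissue the samples held was not tested. Pomc, the hormone precursor that defines corticotrophs and is also made by hypothalamic neurons, was detected, at 40 to 58 counts per brain. Its level was 1.91 CPM ± 0.202 in control and 1.59 CPM ± 0.212 in stress brains (SD, n = 4 each), with overlapping groups and a Log2FC of -0.27 (SE 0.15, edgeR adjusted p = 0.265).

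**Figure D5:**
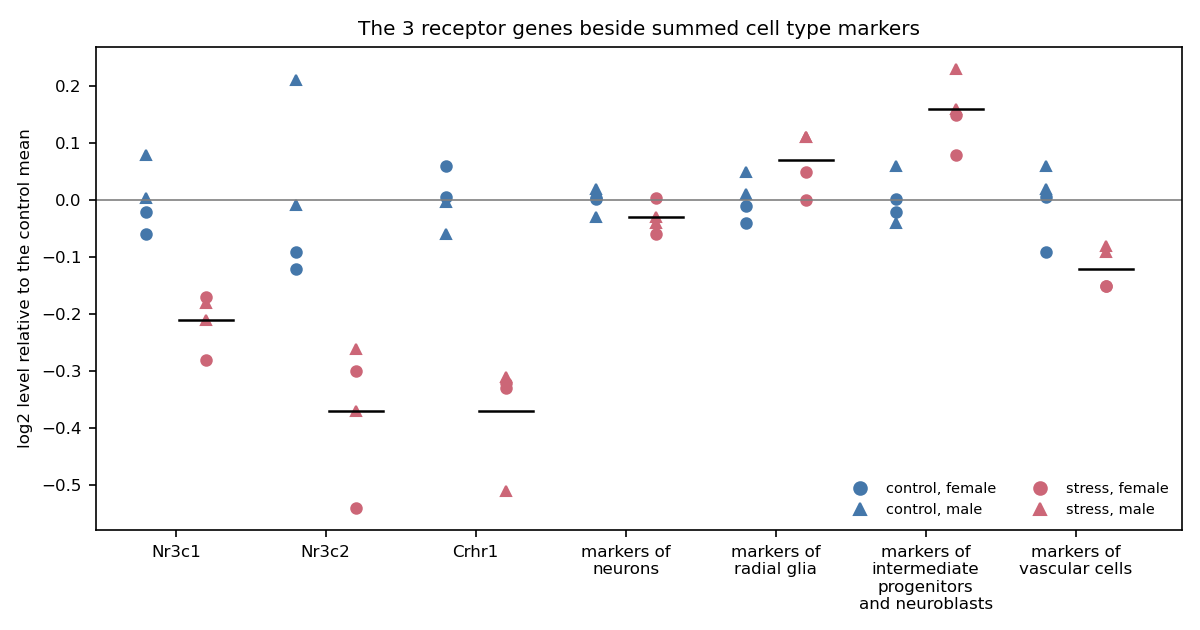
Log2 level of Nr3c1, Nr3c2 and Crhr1 and of the summed CPM of 4 marker lists in each brain, relative to the mean of the control brains, with black bars at the stress mean (blue control, red stress, circles female, triangles male). The stress mean is -0.21 for Nr3c1 and -0.37 for Nr3c2 and Crhr1, and the shifts of the summed markers are smaller. A sum is weighted to its most abundant genes, and single markers differed from it. Log2FC ran from -0.41 for Flt1 to -0.00058 for Pdgfrb among vascular markers. Among neuron markers it ran from -0.13 for Rbfox3 to 0.06 for Dcx.

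Set against the neuron markers of the same brain, the stress minus control difference in log2 was -0.18 for Nr3c1, -0.34 for Nr3c2 and -0.33 for Crhr1, and the groups of each stayed apart. Set against the vascular markers, it was -0.09 for Nr3c1, with groups that overlapped, -0.25 for Nr3c2 and -0.25 for Crhr1, with groups apart. Both scalings were chosen after the data were seen, and both use sums weighted to the most abundant markers. Beyond these ratios, the part of the cell types in the falls of the receptor genes was not tested.

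Among all genes tested, those with a pattern over the 8 brains most like that of a receptor gene were Pdia4 (Pearson r = 0.983) and Hsph1 (0.974) for Nr3c1, Wdr60 (0.982) and Synm (0.966) for Nr3c2, and Snph (0.994) and Cspg5 (0.994) for Crhr1. Crhr1 had 448 genes with r over 0.9, Nr3c1 had 124 and Nr3c2 had 55. For Crh, Chrna7 (r = 0.958) and Tek (0.943) were closest, among 18 genes over 0.9. For Hsd11b2 the closest were Atoh7 (0.965) and Blvrb (0.960), and for Crhbp they were Camkmt (0.940) and Mboat1 (0.936). For the co-chaperones they were C1ql1 (0.983) and Cox7c (0.97) for Fkbp4, Pisd (0.981) and Pcdhb11 (0.973) for Fkbp5, and Olfr544 (0.966) and Slc25a46 (0.965) for Ptges3. The receptor genes were correlated with each other, with r = 0.74 between Nr3c1 and Nr3c2, 0.85 between Nr3c1 and Crhr1 and 0.68 between Nr3c2 and Crhr1. All these values are descriptions of 8 libraries that share their litters, and a gene that separates the litters is alike by that alone.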

How the data were processed

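RNA-seq counts of 8 E15.5 mouse fetal brains were analysed here, 4 control and 4 stress, grouped by the labels. The other 8 of the study's 16 animals were not analysed here. The library table of the study names the tissue half_whole_brain. The authors trimmed the reads, used TopHat2 2.1.1 for alignment to mm10, and made the gene counts from exons of the GENCODE annotation with featureCounts 1.6.3. The alignment allowed several places per read pair, and the options stated for featureCounts set nothing for strand, multi-mapped reads or overlapping genes, so pairs that fit several places may be lost from genes with near copies. The deposited values are raw counts per gene, without normalization. The exon length in the deposited files was used for CPM per kilobase.

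The filter was filterByExpr (minimum count 10, by group), the normalization TMM, and the test the quasi-likelihood test of edgeR 4.0.16 (R 4.3.3, limma 3.58.1) for condition, with sex as a covariate. Benjamini-Hochberg adjustment ran over all 17865 genes tested, with a threshold of 0.05. SEs were derived from the fold change and the F value, and intervals are at 95%. The study used DESeq2 with sex and batch, and batch was left out because no batch is named for these 8 libraries. DESeq2 1.42.0, other normalizations, no filter, no sex term and each brain left out were the alternatives. Single genes were compared by exact two-sided permutation, for which 4 against 4 can give no p below 0.0286. Ratios within a brain are of counts plus 0.5, and pattern likeness is Pearson's r of log2 CPM with a prior count of 2. The scripts were checked on simulated data.

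Totals per library were 25320109 to 29105710 counts, and counting error sets the precision of the lowest genes. Symbols were matched for 54723 of 54752 identifiers. Sequences are from RefSeq (GRCm38.p6), the same build as mm10. All 10 genes are named, and of each list up to 3 called genes with the smallest p. Of each marker list up to 2 called genes could be named. The 2 genes most like each tested gene are also named. The genes and lists were chosen with earlier results of these data known.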

Additional observations from a re-analysis of the deposited data

Results flagged for a closer look

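Of 20 groups of 4 brains looked at, 2 held a brain whose distance to the nearest other brain, as a share of the group's range, was above the critical value of Dixon's test, and chance gives about 1 in 20. Crh in control F36 was at 1.38 CPM, while the other 3 control brains were at 2.04 to 2.08 CPM (share 0.941). Crhr1 in stress M29 was at 7.19 CPM, while the other 3 stress brains were at 8.14 to 8.23 CPM (share 0.915). Leaving out these brains moved Log2FC of Crh from -0.26 to -0.37 and of Crhr1 from -0.37 to -0.33.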

How the results depend on the processing

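The direction of each fall held under every alternative, and the call of Crhr1 held in every alternative over both sexes that was tested, while those of Nr3c1 and Nr3c2 did not. Under DESeq2's Wald test Log2FC was -0.21 for Nr3c1 (Benjamini-Hochberg adjusted p = 0.0555) and -0.37 for Nr3c2 (0.0955), and 1 of the 9 tested genes was called in place of 3. Median-of-ratios size factors, upper-quartile normalization, no filter and no sex term, all in edgeR, changed no call of the 9 genes. Leaving out each brain in turn gave Log2FC of -0.24 to -0.19 for Nr3c1 (called in 6 of 8), -0.43 to -0.31 for Nr3c2 (5 of 8), -0.40 to -0.33 for Crhr1 (8 of 8), -0.05 to -0.01 for Fkbp4, -0.03 to 0.003 for Fkbp5, -0.04 to -0.0049 for Ptges3, -0.15 to 0.04 for Hsd11b2, -0.37 to -0.16 for Crh and -0.08 to 0.06 for Crhbp. It gave 2 to 3 called genes of the 9, and 1590 (without stress M29) to 2365 called genes of all, against 2458. The cause was not tested. It gave a stress minus control difference of 0.09 to 0.20 for the log2 ratio of Nr3c1 to Nr3c2, 0.00058 to 0.04 for Fkbp5 to Fkbp4, -0.46 to -0.01 for Hsd11b1 to Hsd11b2 and 0.11 to 0.45 for Crhbp to Crh. Relative to the vascular markers, a scaling added after the data were seen, the differences moved to -0.09 for Nr3c1, -0.25 for Crhr1, 0.08 for Fkbp4, 0.11 for Fkbp5 and 0.09 for Ptges3. Relative to the neuron markers that of Fkbp5 moved to 0.02. No paired analysis was possible because each group was 1 litter and the groups shared none. Depth limits Hsd11b1, Crh, Crhbp, Hsd11b2 and Nr3c2 most.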
